A study of Homo sapiens with 8 samples.

Results

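The mitochondrial ribosomal protein genes described here are the genes whose symbol begins with MRPL or MRPS and a number. They were taken by symbol among probe sets that the array annotation assigns to exactly 1 gene, and where a gene had several, the brightest on average over the arrays stood for it. The rule found 75 of the 18132 genes measured in this way, and no measured difference entered it. Of these, 47 are coding genes named for the large subunit (MRPL), 27 are coding genes named for the small subunit (MRPS), and MRPL20-AS1 is an antisense transcript that encodes no protein. RefSeq lists 77 coding genes under the rule, and MRPL23, MRPL53 and MRPS24 were left out because they had only probe sets shared with other genes. All 75 were among the 12845 genes tested, which were those with a mean signal above 5.83 on the log2 scale.

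The arrays came from NB4, an established human line of acute promyelocytic leukaemia, in a study of CDK2 depletion during myeloid differentiation. Lentivirus was used at a multiplicity of infection of 10 and carried either a scrambled control or 1 of 3 hairpins against CDK2, shCDK2 #1, #3 and #10. RNA was collected after 2 days, an early stage of differentiation in the design, or 5 days, a late stage. There were 8 Affymetrix arrays, 1 for each construct and day. Every group, the scramble included, had received virus, so no untransduced cells enter any comparison. The labels do not say that the arrays came from separate cultures, and no construct was repeated within a day. The p-values of the comparisons by day and between days measure the spread between the 3 hairpins. Those of each hairpin measure how far the differences between constructs varied from day 2 to day 5. The technical part of either spread is not known.

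The mitochondrial ribosome translates the few messenger RNAs of the mitochondrial genome, all of which encode subunits of the oxidative phosphorylation complexes. Its ribosomal RNAs are made inside the organelle, whereas every one of its proteins is encoded in the nucleus, made in the cytosol and imported. The small subunit binds the messenger RNA and decodes it, and the large subunit forms the peptide bonds and holds the exit tunnel at the inner membrane. The promoters of these genes often carry sites for the nuclear respiratory factors, NRF1 and the ETS family factor GABP. A gene name does not always give the subunit: MRPS18A and MRPS30 are named for the small subunit and sit in the large subunit in the known structures, which makes 49 large and 25 small by structure. Below, large and small follow the symbols unless structure is named.

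The depth of knockdown and the identity of the cells bear on every comparison. On day 2, CDK2 itself read 9.10 log2 with scramble, 7.78 with #1 and 7.54 with #10, whereas the array labelled #3 of day 2 read 9.03, close to scramble. On day 5 the array labelled scramble read 8.19, and the hairpins #1, #3 and #10 read 7.89, 7.72 and 8.08, so the control of that day was not clearly above them. Of 7 promyelocyte and myeloid markers measured, MPO (mean 14.11), CEBPA (11.83) and PRTN3 (10.56) were bright, and AZU1 (9.33) and CTSG (8.54) were lower. ELANE (6.18) and SPI1 (7.15) were dim, and CD33 had no probe set of its own. The list's mean lay between 9.39 and 9.98 over the arrays, lowest in #10 at day 5. Single markers differed more than the list's mean. In #10 and scramble at day 2, MPO read 13.37 and 14.35, PRTN3 9.99 and 11.18, CTSG 8.02 and 9.29, and CEBPA 11.48 and 12.30. AZU1, in the opposite direction, read 10.50 and 9.28. The members were dimmest in that #10 array, but marker differences of this size were not particular to it. In #3 and scramble, CEBPA read 11.13 and 12.30 at day 2, and AZU1 10.00 and 8.83 at day 5. The part of these differences in the members' values was not tested. Means of the lymphoid markers (3 of 4 measured) lay between 5.65 and 6.18, the brightest being CD79A at a mean of 7.36, above ELANE and SPI1. Those of the epithelial and fibroblast markers (4 of 4) lay between 6.19 and 6.65. Of 4 erythroid and megakaryocyte markers 2 were measured: HBB averaged 6.5, and PPBP, a platelet chemokine, lay between 3.27 and 4.89 in 7 arrays and at 13.48 in #10 at day 5. The part of PPBP-expressing cells in the values of #10 at day 5 was not tested. In bulk RNA, fewer cells of a type and less RNA per cell cannot be told apart.

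To show the kind of sequence that lies before these genes, the 120 bases upstream of the annotated start are given for 4 of them, from RefSeq on build GRCh38.p14, 5′ to 3′ on the strand of the gene. MRPS34 and MRPL12 had the lowest estimates of their subunits in hairpin #10, MRPL27 had a large difference too, and MRPS6 was the member furthest in the opposite direction. Capitals mark the ETS core CCGGAAG or its reverse complement CTTCCGG. MRPL38, MRPL4, MRPL1, MRPL9 and MRPL46 had lower estimates in #10 than MRPL27 and no such core in the same stretch.
MRPS34 (chr16:1773135-1773254, minus strand): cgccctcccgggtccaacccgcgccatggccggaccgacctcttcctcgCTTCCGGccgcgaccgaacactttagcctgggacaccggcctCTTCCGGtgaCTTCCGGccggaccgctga
MRPL27 (chr17:50373185-50373304, minus strand): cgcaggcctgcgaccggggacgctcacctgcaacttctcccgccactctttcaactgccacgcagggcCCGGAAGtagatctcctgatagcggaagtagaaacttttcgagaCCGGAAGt
MRPL12 (chr17:81703247-81703366, plus strand): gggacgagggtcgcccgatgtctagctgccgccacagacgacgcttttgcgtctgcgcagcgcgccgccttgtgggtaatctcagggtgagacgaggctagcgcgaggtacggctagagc
MRPS6 (chr21:34073458-34073577, plus strand): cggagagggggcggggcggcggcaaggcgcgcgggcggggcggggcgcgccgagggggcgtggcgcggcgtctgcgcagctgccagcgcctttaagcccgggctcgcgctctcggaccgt

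The mitochondrial ribosomal protein genes were brightest in the scramble array of day 2 and dimmest in #10 of the same day. At day 2 the 74 coding members had a median log2 signal of 10.75 in scramble, 10.23 in #1, 10.31 in #3 and 9.85 in #10. At day 5 it was 10.28 in scramble, 10.40 in #1, 10.03 in #3 and 10.14 in #10. The scramble array of day 2 held the highest value of 61 of the 74 members (82.4%), against 16.4% of all tested genes, and the #10 array of day 2 held the lowest value of 40 members (54.1%), against 15.2%. The cytosolic ribosomal protein genes had array medians between 14.13 and 14.25, close to the highest signal of any probe set, which lay between 14.95 and 15.10 in each array. How far differences are compressed at that end of the scale was not tested. Over all tested genes the medians lay between 7.83 and 7.99.

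**Figure D1:**
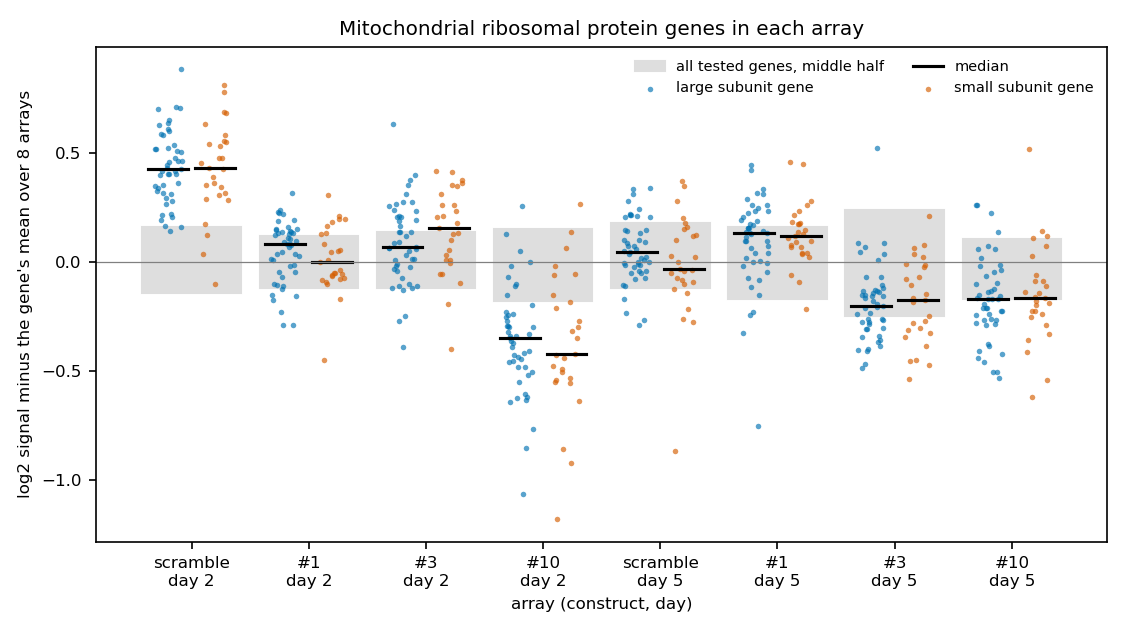
Log2 signal of each coding member minus its own mean over the 8 arrays (vertical axis) in each array (horizontal axis); points are genes of the large and small subunit, black bars their medians, and grey boxes the middle 50% of all 12845 tested genes. Both subunits sit above the grey box in scramble at day 2 and below it in #10 at day 2, and lie near it in the other arrays.

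At day 2 nearly all members had a lower signal in the hairpin arrays than in scramble. The median difference of the 74 coding members from scramble was -0.38 log2 in #1, -0.35 in #3 and -0.79 in #10, which put the #10 array at 58.0% of scramble. The signal was below scramble for 74 members in #1, 67 in #3 and 71 in #10, while the medians of all tested genes were 0.01, 0.03 and -0.03. All 3 hairpin arrays were below scramble for 64 of the 74 members, against 26.5% of all tested genes, and above it for 0, against 25.6%. By subunit the first pattern held for 43 of 47 large and 21 of 27 small subunit genes. The 3 differences share the single scramble array of that day, in which these genes were at their highest, so they are not independent of each other.

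In limma, the fit of the 3 hairpins against scramble at day 2 gave a median difference of -0.52 for the coding members, with 72 of 74 estimates below 0, and 0.02 for all tested genes. None of the 75 members passed an adjusted p of 0.05, and none of the 12845 genes did (0.0%). At an unadjusted p under 0.05, 15 members were lower, 20.3% of the coding members, against 3.23% of all tested genes. The lowest estimates were -1.18 for MRPS34, -1.07 for MRPS12 and -1.04 for MRPS7 in the small subunit, and -0.99 for MRPL12, -0.95 for MRPL4 and -0.95 for MRPL1 in the large subunit. MRPS18B stood at -0.01 and MRPL10 at 0.02. Without the array labelled #3 at day 2 the median was -0.59, and without the #10 array it was -0.37.

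At day 5 the members were spread around the scramble array. Their median difference was 0.07 in #1, -0.25 in #3 and -0.20 in #10, with 27, 55 and 55 of the 74 below scramble, while the medians of all tested genes were -0.03, -0.09 and -0.11. All 3 hairpins were below scramble for 22 members, 29.7%, and for 30.0% of all tested genes, which is the background. They were above it for 9 members, 12.2%, against 16.0% of all tested genes. Of the 9, 6 are small subunit genes (MRPS5, MRPS6, MRPS21, MRPS22, MRPS31 and MRPS35) and 3 large (MRPL10, MRPL42 and MRPL52). The limma median at day 5 was -0.13 against -0.09 for all tested genes, and no member and no gene (0.0%) passed the threshold. One member was higher at an unadjusted p under 0.05, against 0.942% of all tested genes.

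The change from day 2 to day 5 took a different course in each construct. In scramble the median change of the coding members was -0.40, with 72 of 74 lower at day 5, while that of all tested genes was 0.05. In #1 it was 0.07 with 25 lower, in #3 it was -0.34 with 63 lower, and in #10 it was 0.22 with 23 lower. The scramble arrays thus differed from each other by as much as #1 or #3 differed from scramble at day 2. Over the 3 hairpins together limma gave a median of -0.01 for day 5 against day 2, with 38 of 74 lower, and called no member and no gene (0.0%). The difference of the shCDK2 change between the days, an interaction, had a median of 0.40 for the members and -0.04 for all tested genes. The estimate was above 0 for 67 of 74 members, but none passed, nor did any gene (0.0%), and 2 members were above 0 at an unadjusted p under 0.05, against 1.01% of all tested genes.

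**Figure D2:**
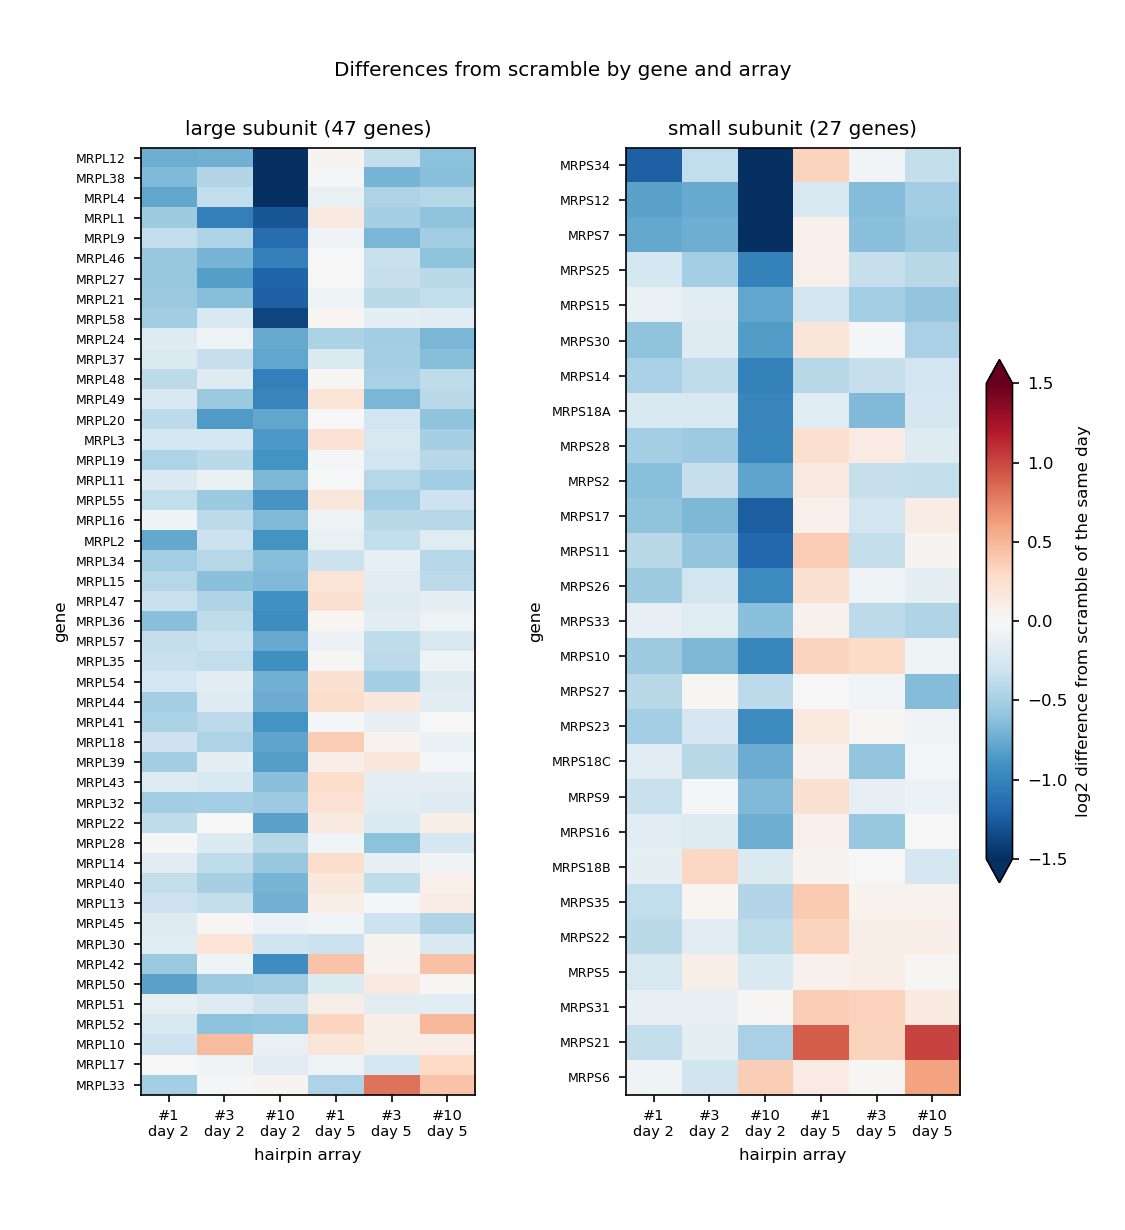
Difference in log2 signal from the scramble array of the same day (colour, blue lower and red higher, saturated beyond 1.5) for each large and small subunit gene (rows, ordered by the limma estimate of hairpin #10) in the 6 hairpin arrays (columns). The 3 columns of day 2 are blue for most genes, deepest in #10, and those of day 5 are pale or mixed.

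Taking both days of a construct together, the hairpins stood in the order #1, #3, #10, which neither day showed alone. At day 2 the median differences of #1, #3 and #10 from scramble were -0.38, -0.35 and -0.79. At day 5 they were 0.07, -0.25 and -0.20. The limma medians of the coding members were -0.14 for #1, -0.28 for #3 and -0.52 for #10, with 66, 65 and 69 of the 74 below 0, and those of all tested genes were -0.02, -0.07 and -0.09. No member was called in any of them. Over all tested genes the calls were 0 for #1 (0.0%), 4 for #3 (0.0311%) and 258 for #10 (2.01%), of which 41 were lower (0.319%). At an unadjusted p under 0.05 1 member was lower in #1 and 10 were lower in #3, against 0.958% and 3.15% of all tested genes. In #10, 33 were lower and 1 was higher, against 9.53% and 10.7%.

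These medians depended on which scramble array stood as the control. Without the scramble array of day 2 they were 0.03 for #1, -0.11 for #3 and -0.30 for #10. Without the array labelled scramble at day 5 they were -0.34, -0.48 and -0.70. Without the day 2 array of #10 its median was -0.29, and without that of day 5 it was -0.73. Without #3 at day 2 the median of #3 was -0.43, and without #3 at day 5 it was -0.16. For #1 they were -0.00 and -0.27 without its own array of day 2 and of day 5. The estimate for #10 stayed below 0 for between 63 and 71 of the 74 members in the fits without a scramble or a #10 array. Leaving out an array of #1 or #3 cannot change that estimate.

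The ranges of the arrays, read from the same values as these medians and not independent of them, gave counts in the same order. Both #10 arrays were below both scramble arrays for 54 of 74 members, against 32.9% of all tested genes, and above both for MRPS6 alone, against 21.2%. For #3 this held for 23 members, against 18.8%, and for #1 for 16, 21.6% of the members against 17.6%. Set directly against each other, #10 minus #1 had a limma median of -0.35 with 69 members below 0, #10 minus #3 one of -0.23 with 66, and #3 minus #1 one of -0.16 with 51. No member passed in any pair, and the shares of all tested genes called were 0.327%, 0.0% and 0.0%. Both #10 arrays were below both #1 arrays for 50 members, against 39.1% of all tested genes. At an unadjusted p under 0.05, 15 members were lower in #10 than in #1 and 2 were higher, against 4.71% and 11.1% of all tested genes.

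**Figure D3:**
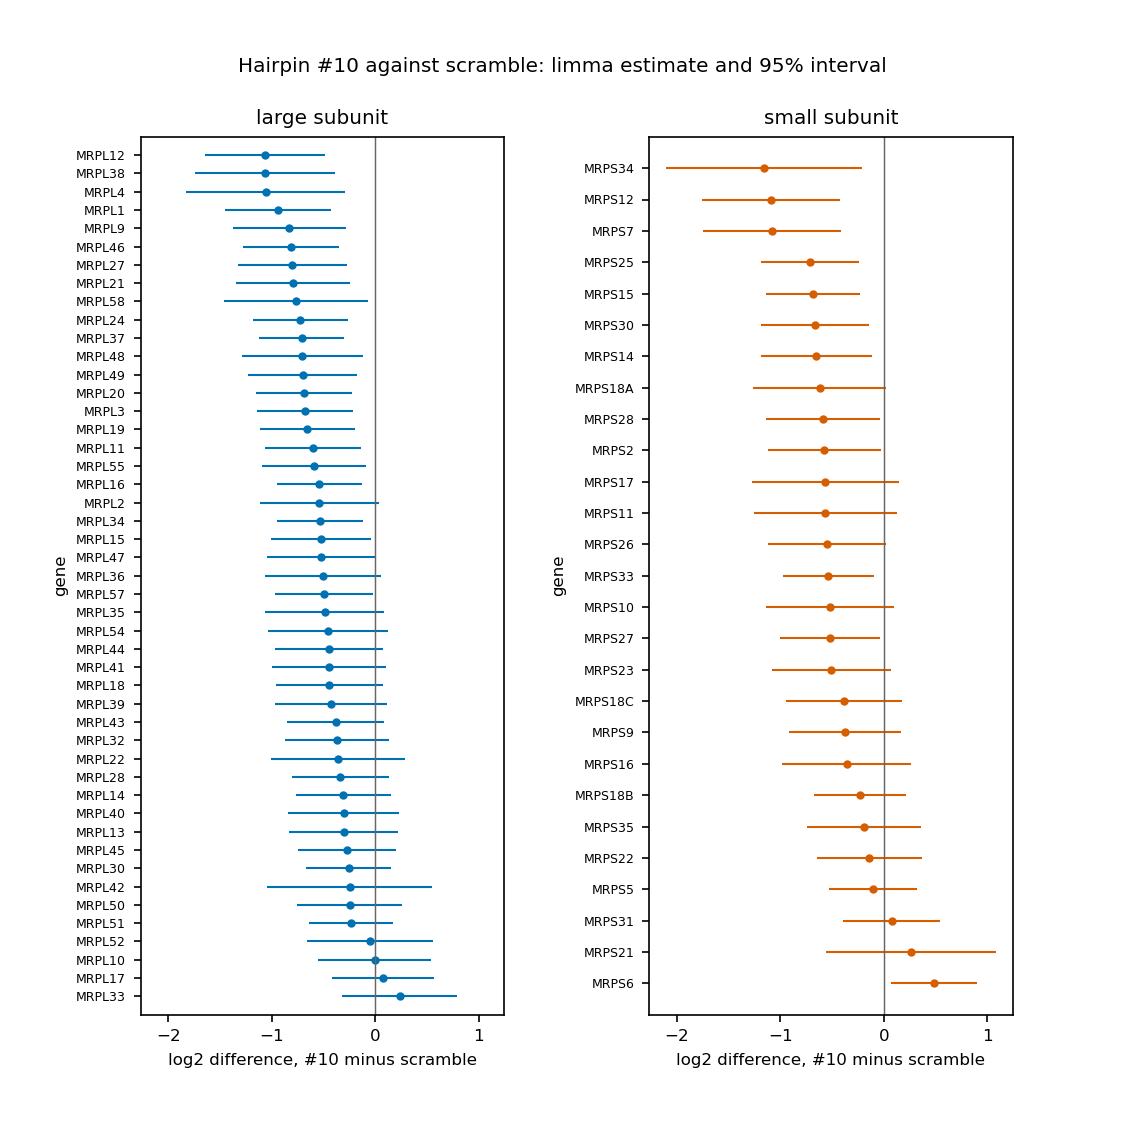
Limma estimate (point) and its 95% confidence interval (line) of the log2 difference between hairpin #10 and scramble over both days, for the 47 large and 27 small subunit genes (rows). Most estimates lie below 0, many intervals include it, and MRPS6 is the one gene whose interval lies wholly above 0.

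Among the large subunit genes, MRPL12 had the lowest estimate in #10. Its protein is part of the stalk that recruits translation factors and has also been described as binding the mitochondrial RNA polymerase. It gave 11.53 log2 in scramble, 10.80 in #1, 10.81 in #3 and 10.02 in #10 at day 2, and 10.74, 10.78, 10.39 and 10.12 in the same order at day 5. The #10 arrays were the lowest at each day, and at day 5 the #1 array lay level with scramble. The difference of #10 from scramble was -1.07 log2 (SE 0.247, adjusted p = 0.075).

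MRPL4, a protein near the exit tunnel, and MRPL38, specific to the mitochondrial ribosome, had estimates of the same size. MRPL4 gave 12.49 in scramble, 11.71 in #1, 12.12 in #3 and 10.80 in #10 at day 2, and 12.20, 12.09, 11.73 and 11.76 at day 5. Its estimate in #10 was -1.06 (SE 0.328, adjusted p = 0.132). MRPL38 gave 9.66, 9.0, 9.22 and 8.16 at day 2 and 9.35, 9.33, 8.66 and 8.73 at day 5, with an estimate of -1.06 (SE 0.291, adjusted p = 0.101). At day 2 #10 was 1 log2 or more below scramble in both genes, and at day 5 #3 was as low as #10 within 0.1 log2.

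MRPL1, a homologue of the bacterial L1 stalk protein, was low in #3 as well as in #10 at both days. It gave 9.45 in scramble, 8.92 in #1, 8.42 in #3 and 8.17 in #10 at day 2, with 9.12, 9.26, 8.62 and 8.52 at day 5. The estimate was -0.94 in #10 (SE 0.22, adjusted p = 0.077) and -0.77 in #3. The #3 and #10 arrays did not overlap those of scramble or #1.

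Further large subunit genes with the same sign in both #10 arrays had smaller estimates. These were MRPL9 (-0.83), MRPL46 (-0.81), MRPL27 (-0.80) and MRPL21 (-0.80), with adjusted p from 0.082 to 0.119. MRPL27, whose promoter is shown above, gave 11.05 in scramble, 10.49 in #1, 10.22 in #3 and 9.85 in #10 at day 2, and 10.48, 10.48, 10.14 and 10.08 at day 5. Its 2 scramble arrays were apart by more than scramble and #10 were at day 5. MRPL37 (-0.71, SE 0.176, adjusted p = 0.083) and MRPL24 (-0.72, SE 0.199, adjusted p = 0.102) are named after their values were seen. They passed the threshold when a #3 array was left out, and leaving out either one gives the same fit of #10 against scramble. That fit called 960 of the 12845 tested genes, a larger share than of the members.

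The large subunit probe sets of highest mean signal, a ranking that does not compare transcript amounts between genes, were those of MRPL51, MRPL4 and MRPL36. Of all 74 coding members MRPL51 had the narrowest range over the 8 arrays. It gave 12.189, 12.062, 11.998 and 11.873 in scramble, #1, #3 and #10 at day 2 and 11.991, 12.081, 11.834 and 11.833 at day 5. Its estimate in #10 was -0.24, with an interval from -0.64 to 0.17. MRPL36, homologue of the small zinc-binding bacterial protein L36, had an estimate of -0.51 (adjusted p = 0.296). The dimmest were MRPL2 (mean 8.16, estimate -0.54) and MRPL50 (mean 7.5, estimate -0.25).

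In the small subunit MRPS34 had the lowest estimate of all members, with the largest standard error. It gave 11.06 in scramble, 9.83 in #1, 10.70 in #3 and 9.10 in #10 at day 2, and 10.40, 10.74, 10.36 and 10.04 at day 5. At day 2 #1 and #10 were more than 1 log2 below scramble and #3 was below it by less, while at day 5 #10 was the lowest. The estimate in #10 was -1.16 (SE 0.407, adjusted p = 0.168). MRPS34 is specific to the mitochondrial ribosome, and its loss is known to destabilise the small subunit.

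MRPS12 and MRPS7 have bacterial homologues, S12 at the decoding centre and S7 in the head of the subunit. MRPS12 gave 10.99, 10.19, 10.24 and 9.33 in scramble, #1, #3 and #10 at day 2 and 10.53, 10.29, 9.88 and 10.01 at day 5. All 6 hairpin arrays were below both scramble arrays, and the estimate in #10 was -1.09 (SE 0.286, adjusted p = 0.093). MRPS7 gave 11.02, 10.24, 10.28 and 9.41 at day 2 and 10.71, 10.78, 10.09 and 10.15 at day 5, with an estimate of -1.08 (SE 0.286, adjusted p = 0.095). In MRPS7 the #1 array of day 5 lay within the range of scramble.

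**Figure D4:**
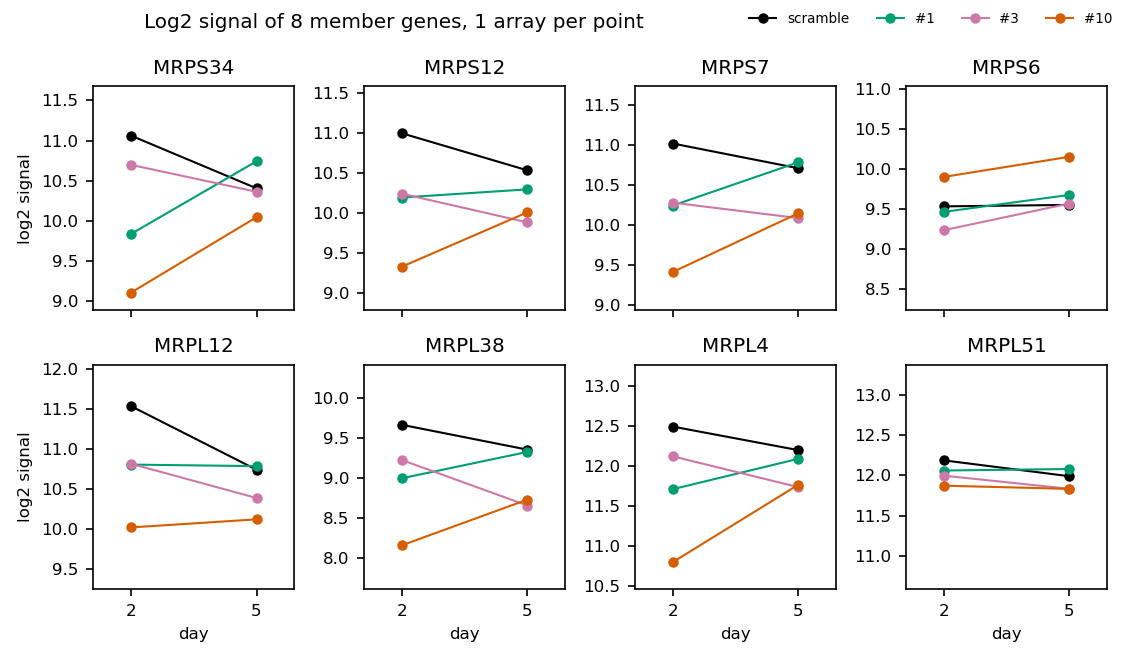
Log2 signal (vertical axis, each panel spanning 2.8 log2) at day 2 and day 5 (horizontal axis) of 4 small and 4 large subunit genes; each point is 1 array and lines join the arrays of a construct. In MRPS34, MRPS7 and MRPL4 the #10 point of day 5 is nearer to scramble than that of day 2, in MRPL12 it stays low, MRPL51 is nearly flat, and in MRPS6 the #10 points lie above the others.

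The other small subunit genes named by their size of change were MRPS25 (-0.71), MRPS15 (-0.68), MRPS30 (-0.66), MRPS14 (-0.65) and MRPS18A (-0.62). Their adjusted p ran from 0.110 to 0.259. MRPS15 was also the brightest small subunit probe set, at 12.002, 11.886, 11.837 and 11.228 in scramble, #1, #3 and #10 at day 2 and 11.759, 11.486, 11.252 and 11.165 at day 5. Here #1 and #3 were near scramble at day 2, and all 3 hairpins were below it at day 5. MRPS9 and MRPS10, the dimmest of the subunit (means 8.93 and 8.67), had estimates of -0.37 and -0.52.

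The MRPS18 paralogues, homologues of bacterial S18, had estimates in #10 of -0.62 for MRPS18A, which belongs to the large subunit in structures, -0.39 for MRPS18C and -0.23 for MRPS18B, with adjusted p of 0.259, 0.442 and 0.575. In #3 they were -0.44, -0.51 and 0.16. The intervals of all 3 in #10 included 0 and overlapped, so no order among them is shown.

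A few members were not lower in #10. MRPS6, homologue of bacterial S6, was chosen for description after its values were seen. It gave 9.54 in scramble, 9.47 in #1, 9.24 in #3 and 9.90 in #10 at day 2, and 9.55, 9.68, 9.57 and 10.15 at day 5. Both #10 arrays were above all 6 others, and the estimate was 0.48 (SE 0.178, interval 0.07 to 0.90, adjusted p = 0.182). MRPL33, homologue of bacterial L33, had 0.23 in #10, 0.39 in #3 and -0.48 in #1, with 9.86 in #1 and 11.14 in #3 at day 5. MRPL17 and MRPS31 each stood at 0.07.

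MRPS21 and MRPS35, which the rule took for their bright probe sets, were low in the array labelled scramble at day 5. MRPS21 gave 11.32, 10.96, 11.18 and 10.83 at day 2 and 9.90, 10.80, 10.23 and 10.91 at day 5. Its #10 array therefore differed from scramble by -0.48 at day 2 and by 1.01 at day 5, and the estimate of 0.26 (SE 0.351, adjusted p = 0.744) joins differences of opposite sign. MRPS35 gave 11.66, 11.29, 11.68 and 11.22 at day 2 and 11.16, 11.54, 11.21 and 11.21 at day 5, with an estimate of -0.19. The antisense transcript MRPL20-AS1 lay between 7.75 and 8.15 in all arrays and differed by -0.22 in #10.

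At day 2 the large and small subunit genes were closest in #1 and #10 and further apart in #3. The median difference from scramble was -0.37 for large and -0.40 for small subunit genes in #1, and -0.78 and -0.79 in #10. In #3 it was -0.37 and -0.25, a gap wider than those of #1 and #10 at day 5. At day 5 the large subunit genes had the lower median in each hairpin: 0.02 against 0.12 in #1, -0.28 against -0.06 in #3, and -0.22 against -0.15 in #10. Of the large subunit genes 22, 38 and 37 of 47 were below scramble in #1, #3 and #10 at day 5, and of the small 5, 17 and 18 of 27. The 3 hairpins share the scramble array of that day, in which the median difference from scramble at day 2 was -0.46 for small and -0.40 for large subunit genes.

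In the limma estimates day 2 had medians of -0.52 for large and -0.48 for small subunit genes, and day 5 had -0.17 and -0.03. The difference between the days was 0.40 in both subunits. They were -0.16 and -0.10 in #1, -0.32 and -0.20 in #3, and -0.51 and -0.54 in #10. Between hairpins they were -0.39 and -0.33 for #10 minus #1, -0.20 and -0.28 for #10 minus #3, and -0.19 and -0.10 for #3 minus #1. With MRPS18A and MRPS30 counted in the large subunit, as in structures, #10 at day 5 stood at -0.24 for large and -0.08 for small subunit genes, #3 at day 2 at -0.37 and -0.27, and the limma medians of #10 at -0.52 in both. The limma medians were then -0.52 and -0.44 at day 2, -0.17 and -0.02 at day 5, -0.19 and -0.09 in #1, and -0.32 and -0.20 in #3. Genes of a subunit are not replicates of a condition, so these pairs of medians carry no test. The widest gap by symbol among these limma medians was -0.14, at day 5.

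All probe sets of the members were also read, the one standing for each gene included, so this is not a separate reading. Some were dim, such as one of MRPL48 at a mean of 3.06, and 2 of MRPL45 held identical values. The same count over all genes was not made. In all, 166 probe sets were assigned to the members, and 46 coding members had more than 1. In #10 all probe sets of the gene were lower than scramble for 39 of these, all were higher for 3, and 4 had probe sets of both signs. Averaging the probe sets of each gene gave a median of -0.46 in #10 and of -0.47 at day 2.

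Promoter sequence was at hand for 67 of the 74 coding members, from 250 bases before to 50 after the start, and was searched on both strands. The ETS core CCGGAAG, contained in GABP sites, lay in 41.8% of members (39.0% of large and 46.2% of small subunit genes), in 10.7% of all 27305 promoters and in 17.5% of those of tested genes. The YY1 core AAGATGG lay in 32.8% of members, 6.06% of all promoters and 7.39% of those of tested genes, and in 15 of the 22 members it lay only after the start. The NRF1 half-site GCGCATGC lay in 8.96% of members, 3.27% of all promoters and 5.03% of those of tested genes. The E-box CACGTG, the site of MYC and related factors, lay in 8.96% of members, above the 7.43% of all promoters and below the 9.69% of those of tested genes. A match is a run of letters and not a shown site.

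Members with and without the ETS or the YY1 core had medians in #10 within 0.02 log2 of each other, and those with the NRF1 half-site had a median nearer to 0. The median estimate was -0.52 for the 28 with an ETS core and -0.53 for the 39 without, and -0.52 and -0.53 with and without the YY1 core. For the NRF1 half-site it was -0.30 in 6 members and -0.54 in 61, and for the E-box -0.45 in 6 and -0.52 in 61. MRPS34, with 3 ETS cores in the stretch printed above, and MRPL12, with none there, had estimates of -1.16 and -1.07. The messenger RNAs of the factors themselves had estimates in #10 of -0.40 for NRF1, 0.33 for GABPA (the DNA-binding part of GABP), -0.29 for YY1 and -0.41 for MYC, none of which passed the threshold.

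Other genes of mitochondrial protein synthesis were lower in #10 as well, and 2 of them passed. Of all tested genes 0.319% were called lower in #10, and their median was -0.09. Of 26 genes of mitochondrial ribosome assembly and rRNA modification 23 were lower, with a median of -0.41, and PUSL1, a pseudouridine synthase, fell by 1.24 log2 (SE 0.207, adjusted p = 0.041). PUSL1 gave 8.85 in scramble, 8.16 in #1, 8.05 in #3 and 7.29 in #10 at day 2, and 8.18, 7.70, 7.77 and 7.26 at day 5. DDX28, an RNA helicase of large subunit assembly, stood at -0.95, TRUB2 at -0.90 and METTL17 at -0.85, without passing.

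Of 13 mitochondrial translation factors 11 were lower in #10, with a median of -0.38. GFM1, the elongation factor that moves the ribosome along the messenger RNA, fell by 1.31 log2 (SE 0.243, adjusted p = 0.047). It gave 9.24 in scramble, 8.42 in #1, 8.54 in #3 and 7.46 in #10 at day 2, with 8.86, 8.58, 8.75 and 8.03 at day 5. The #10 arrays of GFM1 lay below all others, as did those of PUSL1. Neither call held without either scramble array, without the #10 array of day 2, or with median centring: the adjusted p then lay between 0.067 and 0.301.

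All 19 mitochondrial aminoacyl-tRNA synthetase genes tested, which charge the tRNAs of the organelle, were lower in #10, with a median of -0.54 and 0 called. MARS2 had the lowest estimate, -1.14 (SE 0.269, adjusted p = 0.077). Of 16 genes of mitochondrial transcription, DNA upkeep and their regulators 13 were lower, with a median of -0.40 and 0 called. Among them TFB2M, a transcription initiation factor, stood at -0.84 and POLRMT, the RNA polymerase, at -0.71. The 5 tested genes listed as ribosome subunits without an MRP symbol were all lower, with a median of -0.25 and 0 called. They were DAP3, CHCHD1, PTCD3, GADD45GIP1 and NDUFAB1, and the place of NDUFAB1 as a subunit was not checked. GADD45GIP1, a large subunit protein, had the lowest estimate of these (-1.18, SE 0.501, adjusted p = 0.243).

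The cytosolic ribosomal protein genes, whose probe sets lie near the top of the arrays' scale as given above, can be set beside these lists only with that limit. Of 63 tested, 40 were lower in #10, with a median of -0.04, and at day 2 the median was -0.01. None was called. Their lowest estimate among those named by the rule was -0.58, for RPL35A, the dimmest of the 63 at a mean of 10.46, within the range of the members. At day 2 the list medians were -0.38 for assembly, -0.23 for translation factors and -0.38 for the synthetases. They were -0.38 for transcription and DNA upkeep, and -0.27 for the genes listed as subunits without an MRP symbol.

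**Figure D5:**
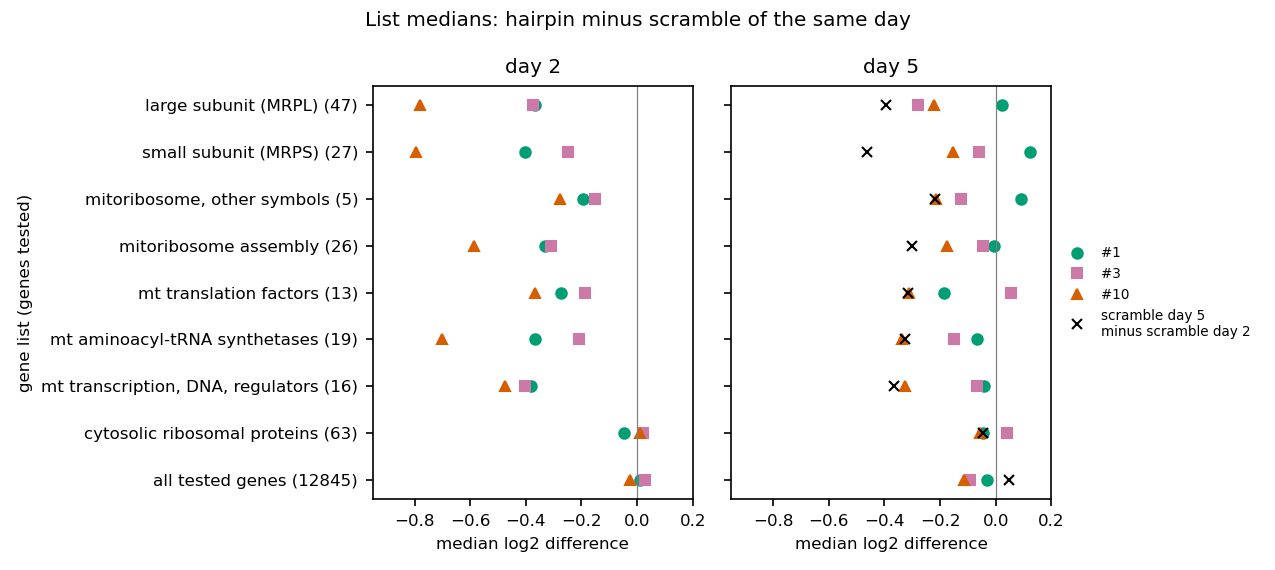
Median log2 difference from the scramble array of the same day (horizontal axis) for each gene list (rows, with the number of genes tested) in hairpins #1, #3 and #10 at day 2 (left) and day 5 (right); crosses show scramble at day 5 minus scramble at day 2. The mitochondrial lists lie left of 0 at day 2 and in the scramble time course, and the cytosolic ribosomal proteins and all tested genes lie near 0 in each.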

How the data were processed

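RNA of 8 samples, grouped by construct and day from the labels, was hybridised to Affymetrix arrays. The table the authors deposited gives log2 signal values of 49395 probe sets; of these 44994 had 1 gene, 1832 several and 2569 none. That the scale is log2 was inferred from the range of values. The submitters' processing notes name Partek, and the normalization method is not given in the sources used here. Values were used as deposited. Symbols were updated by gene ID from RefSeq, where 44967 single-gene probe sets were found, and the update moved no gene in or out. Genes were tested if the mean of the probe set lay above the 40th percentile.

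Fits used limma 3.58.1 in R 4.3.3 on all 8 arrays, two-sided, with Benjamini-Hochberg adjustment over 12845 genes in each of 10 comparisons, and were tested on simulated data. The comparisons by day and between days used a mean for each group and day, with the 3 hairpins as repeats and the lone scramble array assumed to vary as the hairpins do. Those of each hairpin used construct and day as terms, with the 2 days as repeats. The number of arrays limits the precision. The deviations of same-numbered hairpins on days 2 and 5 had r of 0.715 (#1), -0.228 (#3) and 0.432 (#10). Those of #3 thus did not go together. Across numbers, #10 at day 2 had r of 0.568 with #3 at day 5, and #3 at day 2 had 0.316 with #1 at day 5. The comparisons of each hairpin over both days rest on these labels.

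The members, the other gene lists and the motifs were chosen with earlier results of these data known. Members were named for the largest change in #10 with 1 sign in both arrays (8 per subunit), for the 3 highest and 2 lowest means per subunit, and as paralogues or members of the other subunit. The lists named 4 genes each by the same measure, not all of which are printed. Alternatives were quantile normalization, median centring, averaged probe sets, no filter on low values, a replicate block and leaving out each array.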

Additional observations from a re-analysis of the deposited data

How the results depend on the processing

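No member passed in any of the 10 comparisons with quantile normalization, median centring, averaged probe sets or no filter on low values. Without either #3 array, MRPL24 (adjusted p = 0.049) and MRPL37 (adjusted p = 0.038) passed for #10. That fit called 960 of the 12845 tested genes, a larger share than of the members. Member calls from fits that leave 1 array in a compared construct are not given. Without #10 at day 5, the estimate of MRPS12 in #10 was -1.55. Without #3 at day 2, that of MRPL33 for #3 against #1 was 1.22. The genes called for #10 over the whole array numbered 258, and 82 with median centring, 363 with quantile normalization, 960 without either #3 array, and 0 without either scramble array. For #10 against scramble, the fits without either #3 array are the same fit, so their calls count once. Leaving out 1 array moved the median of the members for #3 between -0.48 and -0.11. With 1 array left out, the large minus small gap of the medians ran from -0.162 to -0.037 for #3, from -0.082 to 0.031 for #10, and from -0.045 to 0.030 for day 5 against day 2, where averaged probe sets gave 0.043. Members with all 3 hairpins below scramble at day 5 numbered 13 with median centring, 17.6% of the members against 21.5% of all tested genes. At day 2 they numbered 50 with quantile normalization (21.7% of all tested genes), under which the median for #1 was -0.04, that at day 2 -0.40 and that of the difference between days 0.19. With 1 array left out, the estimate in #10 ran from -0.551 to 0.055 for MRPL50 and from -0.27 to 0.80 for MRPS21, the highest of MRPL50 being without scramble at day 2 and the lowest of MRPS21 without scramble at day 5; MRPS21 was -0.20 without #10 at day 5 and MRPS35 was 0.020 without scramble at day 2; the cause was not tested. With the hairpin number as a replicate block, day 5 against day 2 called 0 members, with a median of -0.0053; the numbers are names of hairpins and were not taken as pairs. Without a day's scramble array, the comparisons that need it could not be fitted. Median centring moved the median of all tested genes in the difference between days by over 0.1 log2.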
